A study of Mus musculus with 50 samples.

Results

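The Schlafen genes of the mouse form a family of interferon-inducible genes, and 7 of them were followed here: Slfn1, Slfn2, Slfn3, Slfn4, Slfn5, Slfn8 and Slfn9. They are 7 of the 24984 genes of the count files and were taken by name. The list was chosen from the response of skin fibroblasts to 3C in these same libraries, so the fibroblast values are given as a description, without a test. RNA-seq covered 38 libraries of C57BL/6 mice in 10 groups, and ATAC-seq, which maps open chromatin by transposase insertion, covered 12 libraries in 4 groups. Untreated kidney and liver came from female mice, young at 2.5 months and old at 23 to 25 months, and gave 4 RNA-seq and 3 ATAC-seq libraries per tissue and age. Another set came from animals of 20 to 21 months that received DMSO or 3C, with 4 libraries for each treatment of kidney and of liver. Skin fibroblasts labelled P9, with DMSO or 3C, made up the last set, with 3 libraries each. DMSO is a solvent, and 3C is not explained by the labels.

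Schlafen genes were named after the German word for sleep because Slfn1 slowed the growth of thymocytes. Mouse members are sorted by protein length. The short group I holds Slfn1 and Slfn2, the intermediate group II holds Slfn3 and Slfn4, and the long group III, which adds a helicase-like region, holds Slfn5, Slfn8 and Slfn9. Type I interferon binds its receptor on the cell surface, and a complex that includes STAT2 and IRF9 then enters the nucleus and binds interferon-stimulated response elements (ISREs) in front of target genes. Lymphocytes and myeloid cells are well known sites of Schlafen expression.

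All 7 genes lie in a cluster on chromosome 11 (GRCm38.p6, RefSeq). In genome order they are Slfn5 (chr11:82951349-82964850, plus strand), Slfn9 (chr11:82974316-82991830, minus), Slfn8 (chr11:83002125-83020810, minus), Slfn2 (chr11:83065112-83070678, plus), Slfn1 (chr11:83116820-83122670, plus), Slfn4 (chr11:83175172-83190216, plus) and Slfn3 (chr11:83191330-83215154, plus). The cluster holds near copies. Of the 50-base windows of its exons, 23.5% of Slfn3, 16% of Slfn9, 15.9% of Slfn8 and 11.5% of Slfn4 also occurred elsewhere in the cluster, against 4.41% of Slfn2, 0.613% of Slfn1 and 0.105% of Slfn5. Assignment of reads to Slfn3, Slfn4, Slfn8 and Slfn9 may therefore be less certain than to Slfn1, Slfn2 and Slfn5, and this was not tested. Slfn5 also shares 1.29% of its exon bases with the antisense gene Slfn5os, and the counting ignored strand.

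The promoters show where the family splits by sequence. The letters searched, on both strands and from 250 bases before to 50 bases after each RefSeq start, were GAAANNGAA (the core of an ISRE), TTCNNNGAA (GAS, another element of interferon-responsive genes), TGANTCA (AP-1) and GAGGAAGT (PU.1). The ISRE core was found in Slfn5, Slfn8 and Slfn9, all of group III, and in none of the other 4 members, while 8.55% of all 32817 RefSeq promoters held it. GAS occurred in 8.29% of all promoters and PU.1 in 3.2%, and no member held either. AP-1 occurred in 7.81% of all promoters and in Slfn4 among the members (TGACTCA at -34). A match of letters is a description and not a bound site. The promoters of the group III members are printed because they carry the matches, and those of Slfn2 and Slfn1 because these genes passed with age in the kidney and held no match. Capitals mark the matches, all of the ISRE core, and each sequence runs 5′ to 3′ on the strand of its gene.
Slfn5 (chr11:82951852-82952151, plus): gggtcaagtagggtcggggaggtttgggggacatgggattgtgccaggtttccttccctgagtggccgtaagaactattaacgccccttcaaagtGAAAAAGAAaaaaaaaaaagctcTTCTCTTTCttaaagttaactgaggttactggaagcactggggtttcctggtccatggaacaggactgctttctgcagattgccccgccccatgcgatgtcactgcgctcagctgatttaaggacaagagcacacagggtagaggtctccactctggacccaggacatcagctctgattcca
Slfn8 (chr11:83020761-83021060, minus): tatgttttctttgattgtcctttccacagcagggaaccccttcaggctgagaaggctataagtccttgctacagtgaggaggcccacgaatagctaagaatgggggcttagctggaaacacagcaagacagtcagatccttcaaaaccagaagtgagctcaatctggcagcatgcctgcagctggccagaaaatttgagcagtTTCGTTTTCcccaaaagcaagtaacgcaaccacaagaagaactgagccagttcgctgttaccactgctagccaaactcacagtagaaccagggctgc
Slfn9 (chr11:82991781-82992080, minus): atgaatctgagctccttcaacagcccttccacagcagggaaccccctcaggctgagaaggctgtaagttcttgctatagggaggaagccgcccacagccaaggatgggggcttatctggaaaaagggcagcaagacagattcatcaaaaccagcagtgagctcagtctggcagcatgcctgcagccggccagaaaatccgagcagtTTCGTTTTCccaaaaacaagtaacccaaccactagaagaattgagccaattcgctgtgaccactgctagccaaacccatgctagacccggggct
Slfn2 (chr11:83064862-83065161, plus): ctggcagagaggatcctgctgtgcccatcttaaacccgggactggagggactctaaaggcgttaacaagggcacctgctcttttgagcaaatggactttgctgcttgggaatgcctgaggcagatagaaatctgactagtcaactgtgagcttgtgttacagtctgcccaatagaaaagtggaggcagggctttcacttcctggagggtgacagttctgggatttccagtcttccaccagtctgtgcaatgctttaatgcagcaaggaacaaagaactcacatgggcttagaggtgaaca
Slfn1 (chr11:83116570-83116869, plus): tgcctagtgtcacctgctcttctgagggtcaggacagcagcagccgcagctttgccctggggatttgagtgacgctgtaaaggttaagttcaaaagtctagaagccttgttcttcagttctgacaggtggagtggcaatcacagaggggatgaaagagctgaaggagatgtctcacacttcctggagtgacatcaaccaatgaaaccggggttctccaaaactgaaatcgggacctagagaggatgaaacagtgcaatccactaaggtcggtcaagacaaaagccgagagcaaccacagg

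Slfn5 held 2 matches, GAAAAAGAA at -155 and TTCTCTTTC at -132 from its start. Slfn8 and Slfn9 shared the same 9 letters, TTCGTTTTC, at -47 and -44. Slfn8 has another RefSeq start further downstream, from which the same match lies at -135.

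Library totals ran from 14.2 M to 43.7 M counted reads (M, mega), and levels are given as CPM (counts per M of the library total) after TMM scaling, which sets a common scale from the bulk of genes. Old kidney replicate 4 was the deepest library, and old kidney replicate 2 held hepatocyte transcripts (5 markers summing to 2492 CPM, against 59.9 to 100.5 in the other old kidneys). Without replicate 2, 3 members were again called with age in the kidney, and the share of all genes called was not computed. The tissue labels held: 5 kidney tubule markers summed to 7832 CPM or more in every kidney library, and 5 hepatocyte markers to 86341 CPM or more in every liver library. No pair of replicates agreed within sampling noise (54 pairs, smallest chi-square per degree of freedom 7.78). The age libraries carry tallies of unaligned and non-unique reads and the DMSO and 3C libraries do not, so values of the 2 sets are placed side by side and were not tested against each other. Nothing in the labels ties a library to a litter or day, so p-values measure the spread between these libraries.

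**Figure D1:**
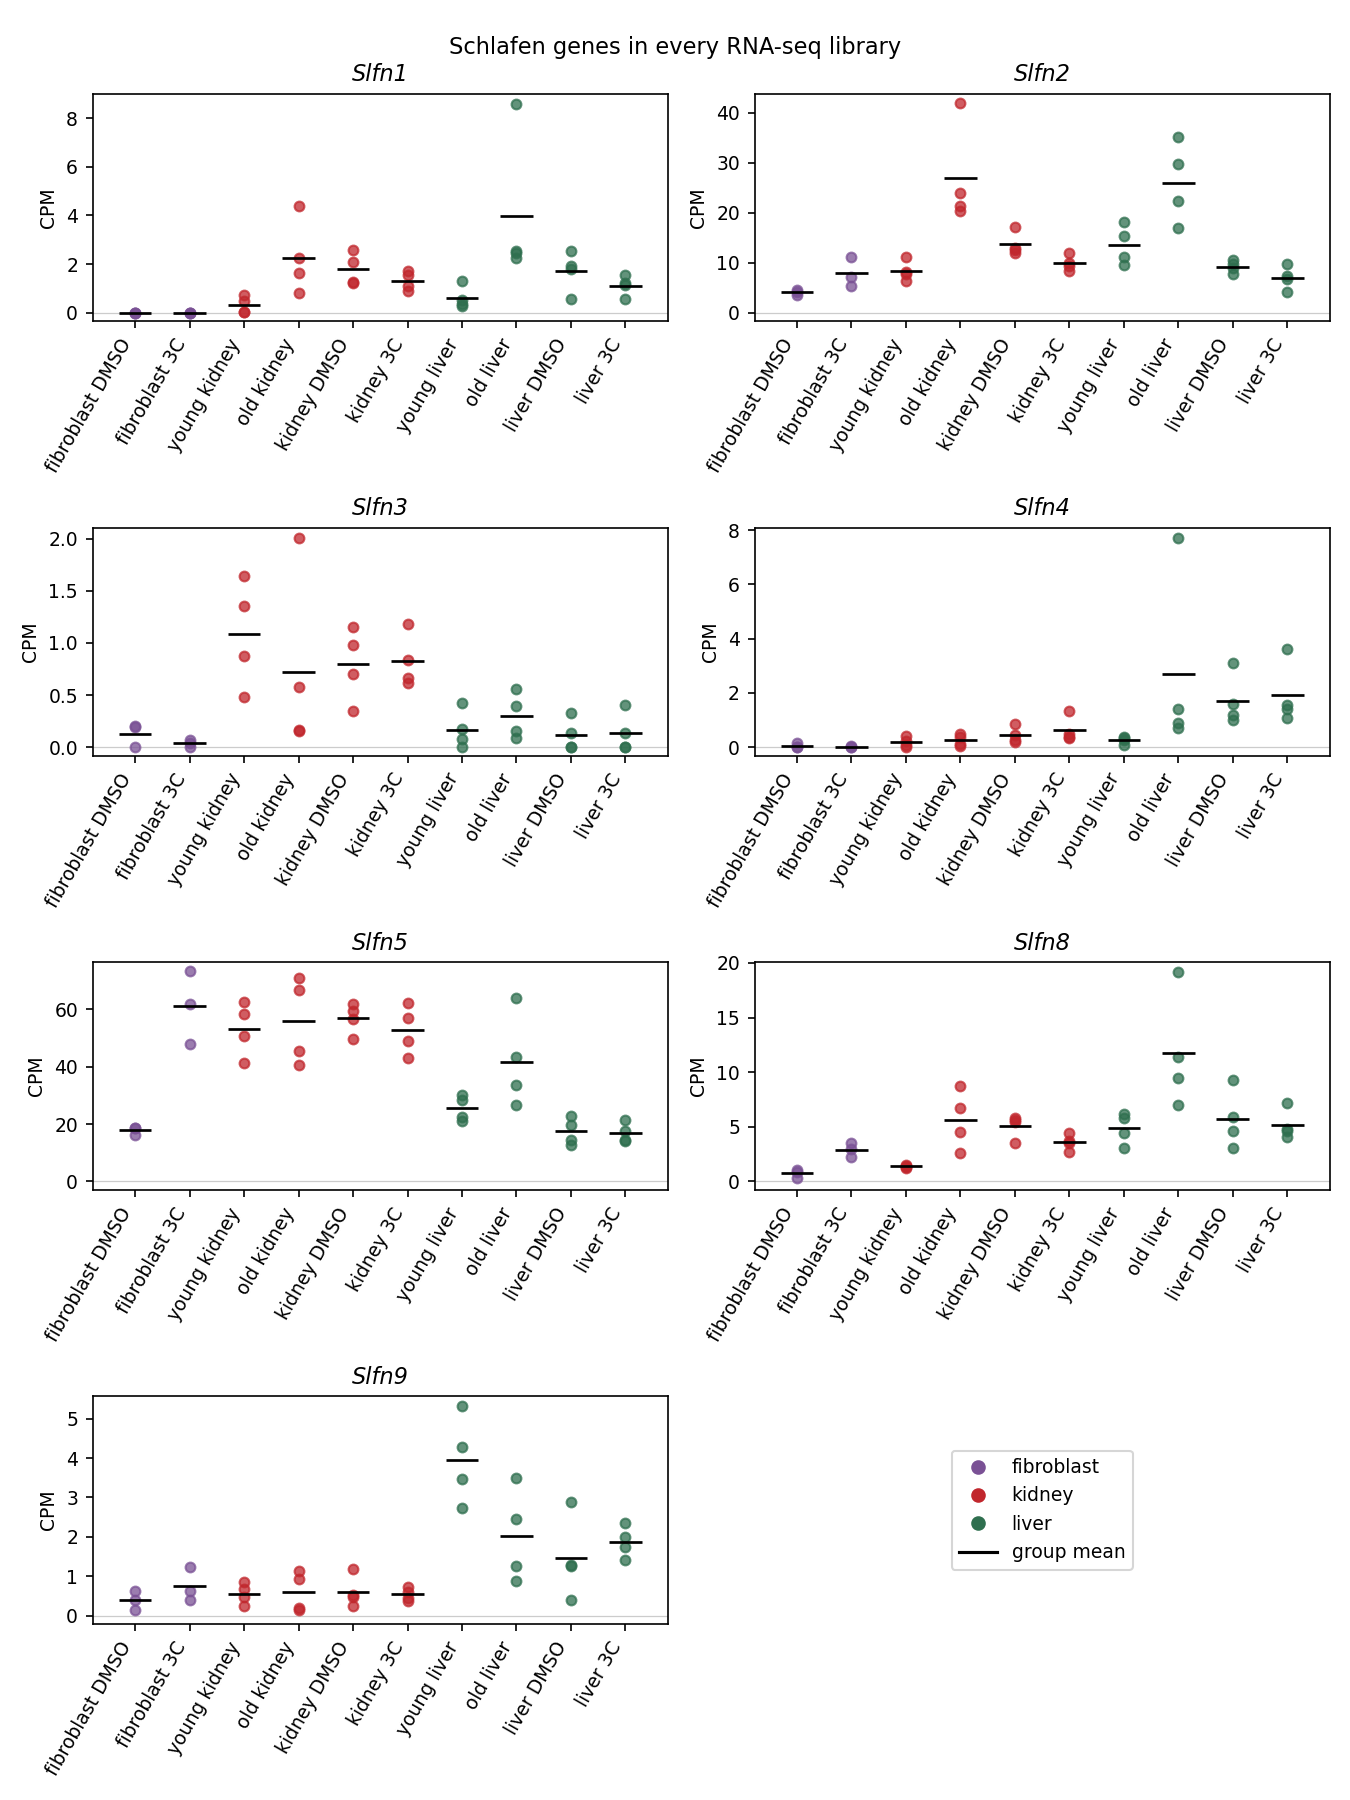
Level of each Schlafen gene in CPM (y axis, linear, own scale per panel) in all 38 RNA-seq libraries by group (x axis), where each point is a library and the black line is the group mean. With the TMM scaling drawn, Slfn5 was highest in fibroblasts with 3C and in all kidney groups, Slfn2 in old kidney and old liver, and Slfn9 in young liver; without TMM, kidney with DMSO led Slfn5 and came before old liver for Slfn2.

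Slfn5 and Slfn2 were the main Schlafen transcripts of every group. Per kilobase of exon, the scale on which genes can be compared, Slfn2 reached a mean of 16.1 CPM per kb in old kidney and 15.6 in old liver, while Slfn5 reached 10.2 in fibroblasts with 3C and 9.34 in old kidney. Of the summed per-kb level of the 7 members, Slfn2 made up 33.2% ± 8.69 (SD, n = 4) in young kidney and 56.1% ± 7.38 (SD, n = 4) in old kidney. Slfn5 made up 58.3% ± 7.58 in young kidney and 33.1% ± 4.77 in old kidney. In young liver the shares were 53.1% ± 9.58 for Slfn2 and 28.5% ± 5.56 for Slfn5, and in old liver 54.8% ± 9.40 and 24.3% ± 5.13 (SD, n = 4 each). The order of these leading members was thus reversed between young and old kidney, and was the same in young and old liver. Kidneys with DMSO or 3C, from animals of 20 to 21 months, had the order of young kidney in their means. Slfn5 made up 46.2% ± 3.18 and Slfn2 39.7% ± 3.17 with DMSO, and 51.4% ± 7.39 and 34.8% ± 4.54 with 3C (SD, n = 4 each). The reversal was therefore not seen in every group of aged kidneys. These groups were not tested against the untreated ones.

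The order of the groups differed from member to member. For Slfn5 the means in CPM ran from 61.1 in fibroblasts with 3C, through 56.9, 56.0, 53.1 and 52.8 in the 4 kidney groups, to 41.8 in old liver and 25.5 in young liver, and then 17.8 in fibroblasts with DMSO, 17.4 in liver with DMSO and 16.8 in liver with 3C. Every neighbour in that order overlapped the next except young liver and fibroblasts with DMSO. Slfn8 ran from 11.7 in old liver to 1.37 in young kidney and 0.731 in fibroblasts with DMSO. Young kidney overlapped neither of its neighbours in that order. Slfn2 ran from 26.9 in old kidney and 26 in old liver, through 13.7 in kidney with DMSO and 13.5 in young liver, to 9.93 in kidney with 3C, 9.25 in liver with DMSO, 8.36 in young kidney, 7.90 in fibroblasts with 3C, 7.01 in liver with 3C and 4.08 in fibroblasts with DMSO, and each neighbour overlapped the next. Slfn1 ran from 3.96 in old liver and 2.27 in old kidney to 0.618 in young liver and 0.333 in young kidney, with the DMSO and 3C tissues at 1.12 to 1.79, and each of these groups overlapped the next. Slfn4 was led by the liver groups other than young liver (2.68 in old liver, 1.92 with 3C and 1.72 with DMSO), and the other groups lay between 0.0143 and 0.636. Slfn9 was led by the 4 liver groups, at 3.95 in young liver, 2.02 in old liver, 1.88 with 3C and 1.46 with DMSO, and the other 6 groups lay between 0.387 and 0.754. Slfn3 was led by the 4 kidney groups, at 0.725 to 1.09, and lay at 0.0376 to 0.301 elsewhere. Across tissues this order depends on the scaling: without TMM, other groups led Slfn5, Slfn8 and Slfn1, and old liver moved to the third place for Slfn2. The mean of Slfn5 was then 87.0 CPM in kidney with DMSO and 81.6 in fibroblasts with 3C. For Slfn8 it was 7.81 in kidney with DMSO, 7.50 in old kidney and 7.30 in old liver. Slfn1 stood at 3.04 in old kidney, 2.74 in kidney with DMSO and 2.43 in old liver, and Slfn2 at 35.01, 20.9 and 15.7 in the same groups.

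In fibroblasts with 3C, Slfn5 and Slfn8 were higher than with DMSO. Slfn5 was 16.1, 18.5 and 18.6 CPM with DMSO and 48.0, 73.5 and 61.8 with 3C. The groups stood far apart, with a log2 fold change of 1.79 (SE 0.16, a fold of 3.47). Slfn8 was 0.870, 1.04 and 0.288 CPM with DMSO and 3.52, 2.24 and 2.95 with 3C. Again no library overlapped, and the log2 fold change was 1.94 (SE 0.39).

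Slfn2, which keeps T cells quiescent, was 4.11, 4.53 and 3.60 CPM with DMSO and 5.46, 7.16 and 11.1 with 3C. The groups did not overlap, and its log2 fold change of 0.95 (SE 0.25) fell just short of the fold of 2 used for calls. Slfn9 was 0.401, 0.615 and 0.144 CPM with DMSO and 1.25, 0.629 and 0.387 with 3C. Its groups overlapped (log2 fold change 0.90, SE 0.56). Slfn1 had 0 counts in all 6 fibroblast libraries, and 3 counts would correspond to 0.0367 CPM over the DMSO group. Slfn3 had 10 counts with DMSO and 3 with 3C, and Slfn4 had 3 and 1, both too few to be fitted.

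The other genes of the interferon pathway were listed by role. They are described in the contrast that chose the Schlafen list, and nothing is read from their count about that list. Of 41 fitted, 23 lay past an adjusted p of 0.05 and a fold of 2 as higher in fibroblasts with 3C and none as lower, where 1.23% of all 13449 genes lay past them as higher and 0.632% as lower: 18 of 23 induced targets, 3 of 10 receptor and signalling genes and 2 of 8 regulators, while none of the 9 interferon genes themselves had counts enough to be fitted. The median log2 fold change of the 41 was 1.36, against 0.01 for all genes. Gbp3, a guanylate-binding protein of cell defence, went from 2.78 ± 0.53 to 17.5 ± 7.60 CPM (SD, n = 3 each). Stat2 went from 46.2 ± 12.8 to 136.6 ± 11.5 CPM, and Irf9 from 22.2 ± 1.37 to 44.5 ± 3.92 CPM (SD, n = 3 each). Both belong to the complex that binds the ISRE.

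The fibroblast label held against its markers. The 5 fibroblast markers summed to 10890 to 14106 CPM with DMSO and 10699 to 13887 with 3C. T cell markers summed to 0.290 to 0.486 CPM over both groups, with 4 to 7 of the 8 at 0, and neutrophil and NK cell markers were below 0.5 CPM. Macrophage markers summed to 215.3 to 277.7 CPM with DMSO and 81.3 to 128.3 with 3C, where 1 of the 7 markers lay past the limits as lower, and their part was not tested.

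**Figure D2:**
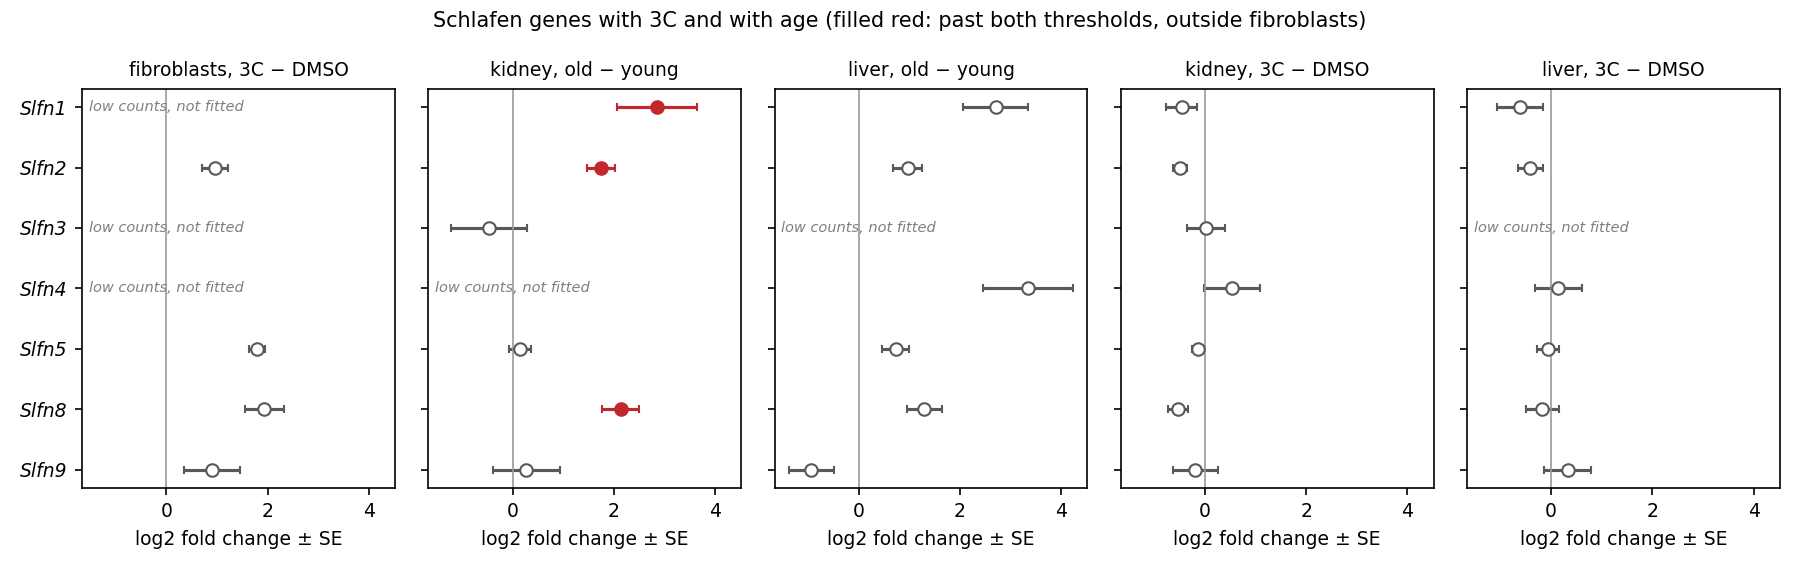
Log2 fold change (x axis) of each Schlafen gene (rows) in 5 comparisons (panels), with bars of 1 SE; filled red points passed an adjusted p of 0.05 and a fold of 2, and the fibroblast panel, whose contrast chose the genes, is drawn without calls. Slfn1, Slfn2 and Slfn8 passed with age in the kidney, and no member passed with 3C in kidney or liver.

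With age in the kidney, Slfn2, Slfn8 and Slfn1 rose. Slfn2 was 8.11, 7.72, 6.38 and 11.2 CPM in young kidney and 20.3, 21.3, 24 and 41.9 in old kidney. Every old kidney was above every young one, and the log2 fold change was 1.75 (SE 0.28, edgeR quasi-likelihood adjusted p = 0.0039). Slfn8 was 1.24, 1.31, 1.52 and 1.40 CPM in young kidney and 4.57, 6.72, 2.59 and 8.72 in old kidney. The groups did not overlap, with a log2 fold change of 2.13 (SE 0.37, edgeR adjusted p = 0.0062).

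Slfn1, the member that gave the family its name, was 0.753, 0.0375, 0.0585 and 0.483 CPM in young kidney and 1.65, 2.24, 0.813 and 4.40 in old kidney. Its groups did not overlap either, by a small margin, and the log2 fold change was 2.85 (SE 0.79, edgeR adjusted p = 0.045). That call rests on few counts (29 in young and 404 in old kidney) and was lost under 8 of 15 alternatives, where the adjusted p ranged from 0.0040 to 0.137. The highest value, 0.137, came without old kidney replicate 4, and the log2 fold change was 3.64 without young kidney replicate 1.

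The remaining members did not pass with age in the kidney. Slfn5 was 62.5, 58.2, 50.6 and 41.1 CPM in young kidney and 40.5, 66.7, 45.6 and 71.0 in old kidney. The groups overlapped over most of their range, with a log2 fold change of 0.15 (SE 0.21, edgeR adjusted p = 0.66). Slfn3 was 0.483 to 1.64 CPM in young and 0.155 to 2.0 in old kidney (log2 fold change -0.47, SE 0.76, edgeR adjusted p = 0.70). Old kidney replicate 2 held 68 of its 111 counts in old kidney. On leaving out 1 library, its log2 fold change ran from -1.66 to -0.15. Slfn9 was 0.241 to 0.842 CPM in young and 0.155 to 1.14 in old kidney (log2 fold change 0.27, SE 0.67, edgeR adjusted p = 0.81). Slfn4 had 14 counts in young and 39 in old kidney and was not fitted. In all, 3 of 6 fitted members passed as higher and 0 as lower, where 5.68% of 14495 genes passed as higher and 0.407% as lower.

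Markers of immune cells moved in the same direction in these kidneys. Macrophage markers summed to 113.0 to 136.8 CPM in young and 545.2 to 1052 in old kidney (7 of 7 called higher), and T cell markers to 4.65 to 7.36 and 26.6 to 36.5 CPM (7 of 8). B and plasma cell markers summed to 4.68 to 9.51 CPM in young and 269.7 to 398.2 in old kidney (6 of 6). Of the neutrophil and NK cell markers tested, 3 of 3 and 2 of 3 were called higher. Their part in the Schlafen differences was not tested, and in bulk tissue more cells of a type cannot be told apart from more RNA per cell. Of 43 interferon pathway genes fitted, 16 passed as higher and 0 as lower, with a median log2 fold change of 0.86 against 0.02 for all genes. Ifit1, which binds foreign RNA, rose from 5.68 ± 1.15 to 17.5 ± 4.49 CPM, Oas2, a sensor of double-stranded RNA, from 0.924 ± 0.18 to 4.48 ± 1.59, and Irf7, a regulator of interferon genes, from 12.3 ± 2.0 to 36.3 ± 13.9 (SD, n = 4 each; edgeR adjusted p = 0.0019, 0.0021 and 0.0042).

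**Figure D3:**
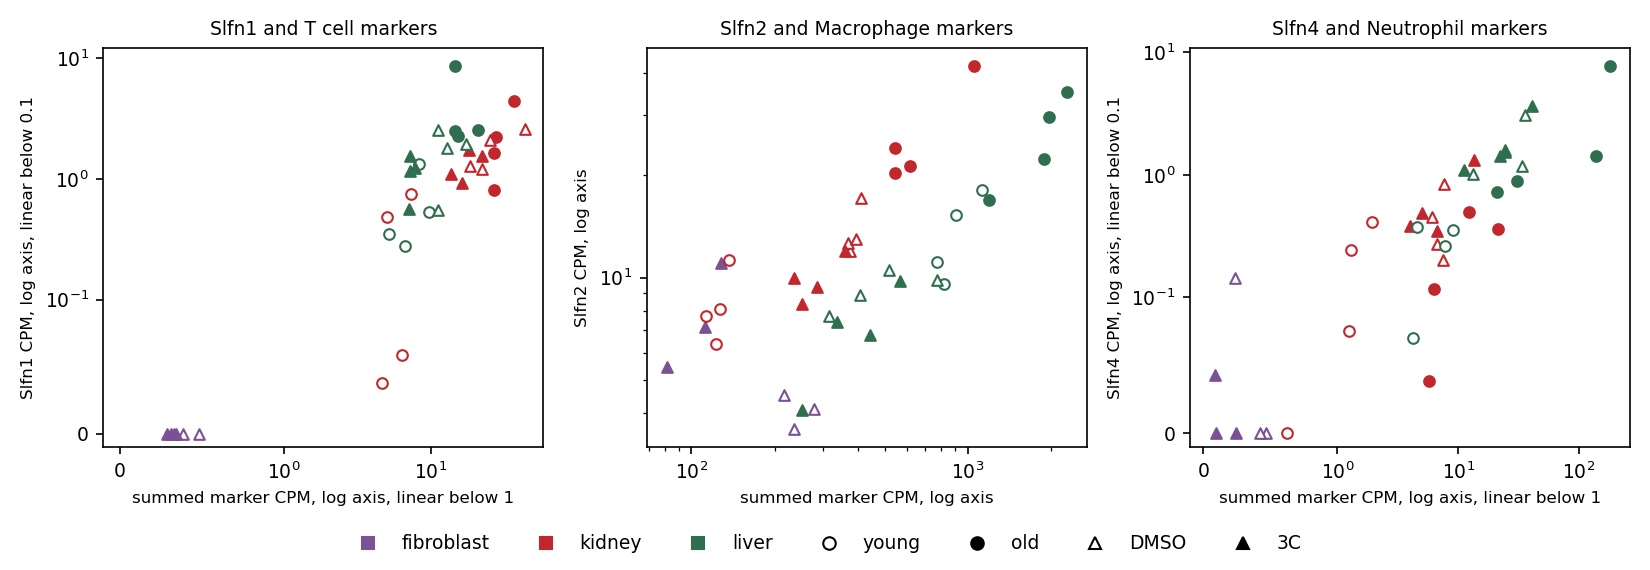
Level of 3 Schlafen genes in CPM (y axes) against the summed CPM of a marker list (x axes) in all 38 libraries; colour gives the tissue and the legend the groups, and axes are logarithmic (Slfn1 and Slfn4 linear near 0). Old kidneys lie above and to the right of young kidneys for Slfn2, and the fibroblasts lie at 0 for Slfn1. The old liver highest in Slfn4 is also highest in neutrophil markers. Among old livers it is highest in macrophage and B and plasma cell markers too.

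In the liver no member passed with age by edgeR. An unadjusted p under 0.05 was found for 5 of the 6 fitted, and for 14.7% of all 12537 genes in either direction. DESeq2 called 3 members (Slfn1, Slfn4 and Slfn8), and 4.75% of all genes. Slfn1 was 0.526, 0.279, 0.348 and 1.32 CPM in young liver and 2.56, 2.47, 8.58 and 2.24 in old liver. Old livers were all above young ones, replicate 3 by far the most, with a log2 fold change of 2.70 (SE 0.64) and an edgeR adjusted p of 0.052 that ranged from 0.00096 to 0.170 over 15 alternatives. The log2 fold change was 1.98 without old liver replicate 3 and 3.38 without young liver replicate 4. Slfn8 was 4.44, 6.15, 5.82 and 3.08 CPM in young liver and 6.97, 11.4, 19.1 and 9.49 in old liver. Here too the groups did not overlap (log2 fold change 1.29, SE 0.35, edgeR adjusted p = 0.084, range 0.011 to 0.232).

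Slfn4, known from myeloid cells, was 0.376, 0.0699, 0.261 and 0.352 CPM in young liver and 1.41, 0.897, 7.70 and 0.725 in old liver. Replicate 3 stood far above the other old livers, which still lay above all young ones (log2 fold change 3.34, SE 0.90, edgeR adjusted p = 0.084, range 0.0032 to 0.243). Without old liver replicate 3 the log2 fold change was 1.91 (edgeR adjusted p = 0.24). That library also had the highest sum of neutrophil markers, 180.2 CPM, against 21.0 to 138.7 in the other old livers and 4.19 to 8.97 in young livers (4 of 4 tested markers called higher). Sums of 3 further immune lists did not overlap, and those of NK cell markers did (1.89 to 6.62 CPM in young and 5.47 to 11.4 in old liver, 0 of 4 tested called). Macrophage markers summed to 774.8 to 1120 CPM in young and 1187 to 2267 in old liver (2 of 7 called higher), T cell markers to 5.21 to 9.77 and 14.6 to 20.9 (1 of 7 tested), and B and plasma cell markers to 6.62 to 9.32 and 29.0 to 129.9 (4 of 5 tested). Of the old livers, replicate 3 was also highest in macrophage and B and plasma cell markers and lowest in hepatocyte markers (109610 CPM). T cell and NK cell sums were highest in replicate 1. That library had 138.7 CPM of neutrophil markers and 1.41 CPM of Slfn4. The part of these cells in the liver values was not tested.

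Slfn2 was 15.3, 9.57, 11.1 and 18.1 CPM in young and 29.7, 22.3, 35.2 and 16.9 in old liver, with 1 old liver inside the young range (log2 fold change 0.97, SE 0.28, edgeR adjusted p = 0.11). Slfn5 was 21.2 to 30.0 CPM in young and 26.5 to 63.8 in old liver (0.73, SE 0.27, adjusted p = 0.21, edgeR). Slfn9 was the only fitted member with a lower mean in old liver, at 4.29, 5.31, 3.48 and 2.73 CPM in young and 0.882, 2.47, 3.49 and 1.25 in old (log2 fold change -0.94, SE 0.44, edgeR adjusted p = 0.36). Slfn3, with 9 and 19 counts, was not fitted. As a background, 1.69% of 12537 genes passed as higher and 0.439% as lower. Of 42 interferon pathway genes fitted, 2 passed, both higher: Oasl1, from 20.3 ± 6.22 to 49.8 ± 4.18 CPM, and the signalling inhibitor Socs3, from 6.15 ± 2.40 to 38.1 ± 35.6 CPM (SD, n = 4 each; edgeR adjusted p = 0.018 and 0.048).

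Whether age acted differently in the 2 tissues was tested with an interaction term. No member passed an adjusted p of 0.05 or an unadjusted p of 0.05 (7 fitted), where 1.72% of 15036 genes passed. The nearest were Slfn4 (difference, liver minus kidney, 2.75, SE 1.42, edgeR unadjusted p = 0.070) and Slfn2 (-0.74, SE 0.40, edgeR unadjusted p = 0.084).

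With 3C in the mice, no member passed in either tissue. In the kidney Slfn2 was 12, 12.6, 17.1 and 13 CPM with DMSO and 9.95, 12, 8.35 and 9.40 with 3C. The lowest DMSO and the highest 3C kidney were equal to 3 digits, and without TMM the groups overlapped (DMSO from 17.8, 3C up to 18.1 CPM). The means differed by a log2 fold change of -0.49 (SE 0.14, edgeR unadjusted p = 0.0055, adjusted p = 0.25). Slfn8 was 3.52, 5.81, 5.66 and 5.40 CPM with DMSO and 3.69, 4.40, 3.49 and 2.72 with 3C, where the groups overlapped (-0.54, SE 0.20, edgeR adjusted p = 0.33). The Slfn5 values were 49.8 to 62.0 CPM with DMSO and 43.1 to 62.2 with 3C (-0.13, SE 0.11). The other 4 fitted members had log2 fold changes of -0.46 to 0.53, each within 2 SE of 0. Macrophage markers summed to 368.4 to 408.4 CPM with DMSO and 234.0 to 359.4 with 3C, and fibroblast markers to 255.0 to 319.1 and 143.6 to 218.7, with no overlap in either list. T cell markers summed to 18.4 to 43.7 CPM with DMSO and 13.7 to 22.3 with 3C, and NK cell markers to 3.11 to 7.53 and 2.88 to 3.45, with overlap. No marker of these 4 lists was called, and their part was not tested. Called genes were 0% of 14974 in each direction by edgeR (1786 with an unadjusted p under 0.05, and 8 called by DESeq2).

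In the liver, Slfn5 was 19.6, 22.9, 12.6 and 14.5 CPM with DMSO and 21.3, 17.6, 14.3 and 14.1 with 3C, a log2 fold change of -0.07 (SE 0.22). Slfn8 was 5.88, 9.28, 3.08 and 4.60 CPM with DMSO and 4.81, 7.17, 4.58 and 4.05 with 3C (-0.17, SE 0.33). For both genes the 3C livers lay largely inside the DMSO range. Sums of T cell markers (11.1 to 17.3 CPM with DMSO, 7.13 to 7.79 with 3C) and NK cell markers (4.10 to 5.91 and 2.17 to 3.57) did not overlap. Those of macrophage (314.5 to 771.5 and 251.4 to 569.4), neutrophil (13.2 to 35.9 and 11.3 to 41.1) and B and plasma cell markers (16.8 to 56.3 and 21.6 to 45.4) did. No marker of these lists was called, and their part was not tested. The 6 fitted members had no unadjusted p under 0.05 (the lowest, for Slfn2, was 0.117 by edgeR), and 0% of 13042 genes passed in each direction (436 with an unadjusted p under 0.05, and 2 called by DESeq2). None of the 43 interferon pathway genes fitted passed with 3C in either tissue, with medians of -0.27 in kidney and -0.10 in liver. The interaction of 3C with tissue was past the threshold for 0 of 7 members and 0% of 15526 genes. The fibroblast comparison used cultured cells and other libraries, and its difference from the tissues was not tested.

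Between young kidney and young liver, 4 of the 5 fitted members passed, 2 in each direction, where 25.7% of 14057 genes passed as higher in kidney and 16.9% as lower. These values rest on the scaling: without TMM the median log2 fold change of all genes was higher by 1.08, and 55.5% of genes passed as higher and 8.82% as lower. Slfn9 was 0.842, 0.675, 0.468 and 0.241 CPM in young kidney and 4.29, 5.31, 3.48 and 2.73 in young liver. The groups were widely separated (log2 fold change, kidney minus liver, -2.81, SE 0.40, edgeR adjusted p = 5.7e-05), and the value was -1.75 without TMM. Slfn8 was lower in kidney by a log2 fold change of -1.85 (SE 0.29, edgeR adjusted p = 0.00013), a value that was -0.79 without TMM, short of the fold, so that the call was lost. Slfn3, with 98 counts in kidney and 9 in liver, was higher in kidney (2.58, SE 0.69, edgeR adjusted p = 0.0061). Its log2 fold change was 3.63 without TMM and 3.59 without young liver replicate 2. Slfn5 was higher in kidney by 1.04 (SE 0.17, edgeR adjusted p = 0.00016), close to the fold of 2. That call was lost on leaving out young kidney replicate 1 or 2 or young liver replicate 3 or 4, where the log2 fold change fell under the limit, to 0.95 at the lowest (4 of 15 alternatives), while without TMM it was 2.11. Slfn2 differed by -0.70 (SE 0.25, edgeR adjusted p = 0.026), short of the fold, and by +0.39 without TMM, so its direction between tissues is not settled. Of 43 interferon pathway genes fitted, 28 were lower in kidney and none higher, against 14 lower and 8 higher without TMM. Stat2 was 84.2 ± 10.3 CPM in young liver and 14.7 ± 1.81 in young kidney, Bst2 417.2 ± 138 and 22.8 ± 5.95, and Zbp1 26 ± 3.8 and 2.22 ± 0.70 (SD, n = 4 each). All 7 macrophage markers were also lower in kidney (6 of 7 without TMM), and their part was not tested.

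**Figure D4:**
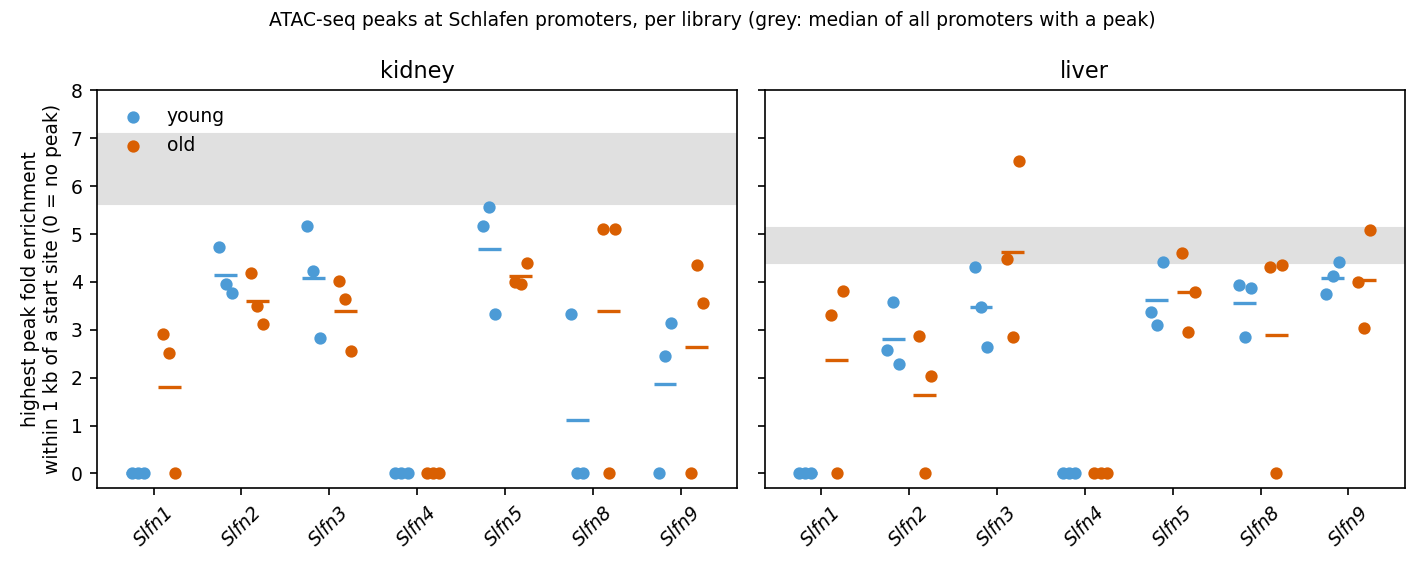
Highest ATAC-seq peak (y axis, fold enrichment over local background, 0 where no peak was listed) within 1 kb of a start of each Schlafen gene (x axis) in young and old libraries of kidney and liver, with group means as lines and, in grey, the range of library medians over all promoters with a peak. Within 1 kb, Slfn1 had a peak in old libraries alone, and Slfn4 had none. At a stricter threshold (−log10 q of at least 5), the Slfn1 peak remained only in old liver replicate 3.

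Promoter accessibility was read from peaks the authors called in each library. Slfn2, Slfn3 and Slfn5 had a peak within 1 kb of a start in all kidney libraries, with fold enrichments of 3.13 to 4.73, 2.55 to 5.18 and 3.34 to 5.57. The median promoter with a peak stood at 5.64 to 7.08 in the kidney libraries, above all of these, and at 4.40 to 5.13 in the liver libraries. Slfn1 had no peak in 3 of 3 young kidneys and 3 of 3 young livers, and in old libraries the peak stood at 2.92, 2.52 and 0 in kidney and 3.31, 0 and 3.81 in liver. Because 1 old library of each tissue had none, the groups overlapped (exact permutation test, two-sided, p = 0.40 in each, where 3 against 3 cannot go below 0.1). At a stricter threshold (−log10 q of at least 5), only the peak of 3.81 in old liver replicate 3 remained. Merged over libraries, the Slfn1 peaks formed a region that covers its printed promoter (chr11:83116442-83117260). Whether any single peak covers it was not examined. Neighbouring merged regions, centred -1601 and 1504 bp from the start, each held a peak in 1 of 3 young livers and in no young kidney. In old libraries each held one in 2 or 3 of 3 per tissue.

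Slfn8 had a peak of 3.33 in 1 of 3 young kidneys and of 5.11 and 5.1 in 2 of 3 old kidneys, and in all 3 young and 2 of 3 old livers. Slfn9 had one in 2 of 3 kidneys at each age (2.46 to 4.35) and in all livers (3.03 to 5.08). For Slfn4, no library of the 12 listed a peak at its promoter, although its RNA was counted in all old livers. Slfn2 in old liver had a peak in 2 of 3 libraries. With peaks merged over the 12 libraries, a region at the Slfn5 promoter (chr11:82951774-82953131) covered both ISRE matches and held a peak in every library. Whether the peak of each library covers the matches was not examined. A neighbouring merged region further upstream (chr11:82950886-82951569) held a peak in all 6 kidney libraries and in 2 of 6 liver libraries. In no member were all old libraries above or below all young ones in either tissue. Over all promoters, 12.7% of 16879 in kidney were higher and 9.37% lower in every old library, and 6.84% and 6.3% of 17025 in liver.

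Last, each member was set beside the other genes of the files by its pattern over libraries. Pearson's r was taken over the 38 libraries on log2 CPM after centring each tissue set on its mean, over 13944 genes. It is a description only, since the libraries share depth and cell makeup. Slfn2 was most like Phf11b (r = 0.91), Ifi204 (0.90) and Plac8 (0.89). Slfn1 went with Apobec3 (0.86) and Rnase6 (0.86), and Slfn8 with Trim30d (0.87), Ifi207 (0.86) and Irf9 (0.85). Slfn5 was most like Ifi203 (0.88), Sp100 (0.83) and Trim30a (0.82), which fell to 0.74, 0.65 and 0.72 without the fibroblasts. Slfn4 was most like S100a8 (0.76), Ngp (0.73) and Ltf (0.72), which are genes of neutrophils. Slfn3 (Myo9a, 0.72) and Slfn9 (Tut4, 0.74) had neighbours outside these groups. Within the family, Slfn1 and Slfn2 (0.77), Slfn2 and Slfn8 (0.73) and Slfn5 and Slfn8 (0.67) were the closest pairs, with Slfn1 and Slfn8 at 0.65. The order of pairs changed without the fibroblasts, over 32 libraries, where these pairs stood at 0.83, 0.75, 0.59 and 0.79. Over all 38 libraries, Slfn3 and Slfn9 correlated with other members by at most 0.35 (Slfn5 and Slfn9).

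The other Schlafen genes of the files were close to empty. Slfn14 and Slfnl1 had at most 5 counts in any group, Slfn5os at most 14 and the pseudogene Slfn10-ps at most 20, and none was fitted in any comparison.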

How the data were processed

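RNA was sequenced in 38 libraries and open chromatin in 12, grouped by the sample labels. The deposited RNA values are counts of reads per gene, which the authors made with HTSeq 0.12.4 (strand ignored) from HISAT2 2.2.1 alignments on mm10, after Trimmomatic 0.39. That account is of the untreated tissues, and the steps for DMSO and 3C libraries are not given in the sources used here. For ATAC-seq, the authors used Bowtie2, removed duplicates and called peaks per library with MACS2; the deposited fold enrichment is a ratio, beside −log10 p and −log10 q values, and the read depth behind it is unknown.

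Each comparison was fitted on its own groups over all genes with edgeR 4.0.16 (R 4.3.3; TMM, filterByExpr with a minimum count of 10, quasi-likelihood F test, Benjamini-Hochberg adjustment). A call needs an adjusted p under 0.05 and a fold above 2 or below 0.5. SE is the log2 fold change divided by the square root of F. Total counts were 14.2 M to 43.7 M per library, so genes with few counts are imprecise. Scripts were tested on simulated data. Promoters (1000 bp around RefSeq starts) took the highest peak. Alternatives were DESeq2 1.42.0, other scaling (library size without TMM was added after seeing the data), other filters, an adjusted p alone, a replicate block, peak thresholds and leaving out each library.

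Replicate numbers paired the libraries between young kidney and young liver by the data (4 of 4 same-number correlations above 0.1, lowest 0.104, highest 0.452); no label states it. Genes were named by rule: all 7 members, other Schlafen genes, up to 3 higher and 3 lower called interferon genes per comparison with the smallest p, and the 3 genes most like each member with a mean of at least 1 CPM in a group; for Slfn1, 1 of these is not reported here. The members and lists were chosen with earlier results of these data known.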

Additional observations from a re-analysis of the deposited data

Results flagged for a closer look

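Of 56 groups of 4 libraries examined over the 7 members, 3 held a library far from the others, and chance flags about 1 in 20 such groups. Slfn1 was 8.58 CPM in old liver replicate 3, where the other 3 libraries lay at 2.24 to 2.56. Slfn4 was 7.70 CPM in the same library, with the others at 0.725 to 1.41. Slfn4 was 1.33 CPM in kidney 3C replicate 2, with the others at 0.348 to 0.487. That kidney also had the highest neutrophil marker sum of its group, 13.4 CPM against 3.95 to 6.65. It was highest of its group in macrophage (359.4 CPM), NK cell (3.45) and fibroblast (218.7) markers too. T cell and B and plasma cell sums were highest in replicate 1. The part of these cells was not tested.

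The means of Slfn2 with 3C and DMSO differed in opposite directions in fibroblasts and in kidney. The kidney difference did not pass the limits for a call, and the fibroblast difference is given without a test. Every fibroblast library with 3C was above every one with DMSO (log2 fold change 0.95), in the contrast that chose the list. In the kidney the log2 fold change was -0.49 (edgeR adjusted p = 0.25). The 3C kidneys lay below the DMSO kidneys only by a gap under 3 digits, at 12 CPM for both the highest 3C and the lowest DMSO library, and without TMM the groups overlapped (DMSO from 17.8, 3C up to 18.1 CPM). The difference between fibroblasts and kidney was not tested.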

How the results depend on the processing

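Slfn2 and Slfn8 kept their calls with age in the kidney under all 15 alternatives, and the replicate block changed no call of a member. With the block, the log2 fold change of Slfn9 with age in the kidney was -0.011 and the age by tissue difference of Slfn1 was 0.073, both of the other sign. Without TMM, Slfn2 between tissues was 0.39, Slfn3 with 3C in the kidney was -0.017, and the groups that lead with TMM stood at 81.6 CPM for Slfn5 (fibroblasts with 3C, below kidney with DMSO at 87.0) and 2.31 CPM for Slfn9 (young liver). For age in the liver, DESeq2 called 3 members and no filter 1. Leaving out 1 library called 0 to 2 members with age in the liver (2 without old liver replicate 1, and 1 without old liver replicate 4 or young liver replicate 4). The share of all genes called without the filter or in these refits was not computed, so the counts are not read as particular to the members. In fibroblasts with 3C, described without calls, leaving out 1 library gave log2 fold changes of 0.63 to 1.16 for Slfn2 and 1.65 to 1.94 for Slfn5. Leaving out 1 library there gave 1.61 to 2.25 for Slfn8 and 0.37 to 1.38 for Slfn9. It also gave log2 fold changes of both signs: with 3C in the kidney, -0.23 to 0.24 for Slfn3, -0.14 to 1.02 for Slfn4 and -0.45 to 0.36 for Slfn9; with age in the kidney, -0.0020 to 0.29 for Slfn5 and -0.24 to 0.58 for Slfn9; with 3C in the liver, -0.37 to 0.59 for Slfn4, -0.21 to 0.095 for Slfn5 and -0.38 to 0.17 for Slfn8. None of these was called in any of them.

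For promoter peaks within 500 bp, the old minus young difference in fold enrichment was 0.463 for Slfn3 and 1.20 for Slfn5 in kidney and -0.418 for Slfn3 in liver, and 1 member had groups that did not overlap in kidney, as did 22.1% of all promoters with a peak. With a −log10 q of at least 5, Slfn8 in liver was 0.287. Leaving out 1 library gave 0 to 2 such members in kidney (29.9% to 33.3% of all promoters with a peak) and 0 to 3 in liver (19.5% to 28.3%; 3 members without old liver replicate 2, where it was 28.3%), and differences of -0.170 to 2.09 for Slfn9 in kidney, and of -0.257 to 0.569 for Slfn5, -1.40 to 0.783 for Slfn8 and -0.577 to 0.450 for Slfn9 in liver. The cause of these changes was not tested. Slfn1, Slfn3, Slfn4 and Slfn9 rest on few counts, and 3 libraries per group limit the peak comparisons.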
